A study of Homo sapiens with 6 samples.

Results

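The genes described here encode the machinery that licenses and fires replication origins, copies DNA and mends it by homologous recombination, and their transcripts were followed in Caco-2 cells that expressed a hairpin against FAM46A. The list held 58 genes, named for these functions with earlier results of these data known, so their counts are a description and not independent evidence of a direction, and 30 of them had a probe set with that gene symbol among the 14884 named genes of the array table. The other 28 were not analysed here. They include all 6 ORC subunits, the 16 polymerase, primase, clamp loader, ligase and RPA genes, and BRCA1, BRCA2, FANCA, FANCD2, FANCI and BLM. By role, 14 of 20 origin licensing and firing genes were measured, 2 of 18 genes of the copying machinery around polymerases and clamp loaders (the clamp PCNA and the nuclease FEN1), all 7 genes of G1/S cyclins, nucleotide supply and chromatin, and 7 of 13 genes of homologous repair and fork protection.

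Caco-2 is an established human colon carcinoma line. Lentivirus carried FAM46A-shRNA#2, FAM46A-shRNA#4 or a scramble shRNA, the last as control, into cells that were not yet confluent, and RNA was taken 17 days later. Each group had 2 arrays, labelled biological replicates 1 and 2 of this 1 line, and no source says whether they came from separate cultures or infections. FAM46A (TENT5A) is a non-canonical poly(A) polymerase. Its own level was not analysed here, so how far each hairpin lowered it is unknown and the groups are those the labels name. The deposited values had been centred, so that each probe set's median over the 6 arrays was 0, and they were taken as log2, a base that no source used here states. They therefore hold differences between arrays and no expression level, no filter on dim genes could be set, and the values of a group that lies between the others sit close to 0. The usual epithelial markers could be checked for changes and not for presence.

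Before S phase, the origin recognition complex, CDC6 and CDT1 load the ring-shaped MCM2 to MCM7 helicase onto DNA, which is called licensing. At the start of S phase, kinases and further factors join CDC45 and the GINS complex to the ring, and the active helicase unwinds DNA for the polymerases that run on the PCNA clamp. Many of these genes are transcribed at the G1/S boundary under E2F factors, and homologous recombination genes act on forks that stall or break. Caco-2 cells are known to slow their cycle and take on enterocyte features after they reach confluence.

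Replication and repair genes were mostly higher with the hairpins than with scramble. When the mean of both hairpins was set against scramble, 21 of the 30 measured genes rose and 0 fell (limma over all genes, Benjamini-Hochberg adjusted p under 0.05), and 9 did not pass the test. Of all 14884 genes, 25.4% passed in the same test, 14.8% higher and 10.6% lower. With shRNA#2 alone 16 rose and 1 fell, where 21.6% of all genes passed, 12.1% higher and 9.54% lower. With shRNA#4 alone 21 rose and 0 fell, where 26.1% of all genes passed, 15.7% higher and 10.4% lower. The hairpins were compared with the same 2 scramble arrays, so these counts are not independent. The median log2 change of the 30 genes was 0.36 with shRNA#2, 0.59 with shRNA#4 and 0.49 for their mean, and that of all genes was within 0.01 of 0 in each.

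Array by array, the median value over the 30 genes was 0.00 in both shRNA#2 arrays, 0.19 and 0.14 in the shRNA#4 arrays, and -0.41 and -0.26 in the scramble arrays. All 4 hairpin arrays lay above both scramble arrays for 23 of the 30 genes, as they did for 19.5% of all genes, and for 0 of the 30 did they all lie below, as for 16.7% of all genes. Both shRNA#2 arrays were above both scramble arrays for 23 of the 30 (29.7% of all genes), and both shRNA#4 arrays for 29 of the 30, all but RRM2 (31.8% of all genes). The scramble arrays also differed from each other in these genes. Scramble replicate 1 was below scramble replicate 2 for 27 of the 30, and for 49.3% of all genes. Without scramble replicate 1, fewer of the 30 rose for the mean of both hairpins and with each hairpin, and fewer of all genes were called too. The drop was thus not particular to the 30. Without scramble replicate 2, fewer of all genes were called, while the rises among the 30 did not become fewer. Each array was also left out in turn, which leaves its group with 1 array that is assumed to vary like the other 2 groups. Over these 6 fits, 15 of the 21 genes called for the mean of both hairpins kept their call, and MCM5, CDC45, GINS4, PCNA, RAD18 and UHRF1 lost it at least once. With shRNA#4 17 of 21 kept it, and GINS4, FEN1, RAD18 and UHRF1 lost it at least once. With shRNA#2 10 of 17 kept it, and MCM2, MCM4, MCM7, CDT1, CDC45, PCNA and RAD51C lost it at least once.

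**Figure D1:**
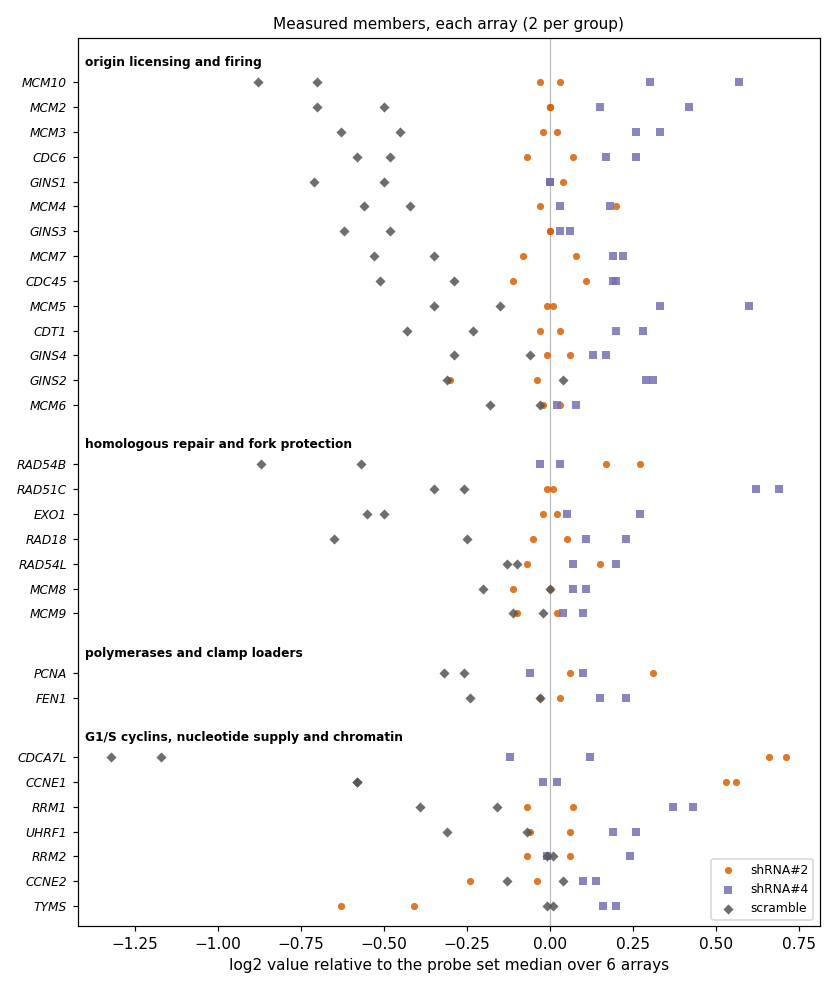
Value of each measured gene, grouped by role, on each array; the x axis is the log2 value relative to the probe set's median over the 6 arrays, circles are the 2 shRNA#2 arrays, squares the 2 shRNA#4 arrays and diamonds the 2 scramble arrays. For 23 of the 30 genes both diamonds lie left of all other points, while TYMS has its circles at the far left.

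Of the 14 licensing and firing genes, 12 rose for the mean of both hairpins, 10 with shRNA#2 and 12 with shRNA#4, and 0 fell. Their median log2 change was 0.56 for the mean. The shares of all genes called, given above for each comparison, apply to the counts of each role and complex below. Of the loading factors, both that were measured rose. CDC6, the ATPase that helps to place the ring on the origin, stood at -0.07 and 0.07 with shRNA#2, at 0.26 and 0.17 with shRNA#4, and at -0.58 and -0.48 with scramble. The 3 groups did not overlap, and CDC6 rose 1.55-fold for the mean of both hairpins (0.64 ± 0.062 on the log2 scale, limma, SE of the fitted change, n = 2 per group, adjusted p = 0.00118). CDT1, which brings the ring to CDC6, stood at 0.03 and -0.03 with shRNA#2, at 0.20 and 0.28 with shRNA#4 and at -0.43 and -0.23 with scramble. It rose by 0.45 ± 0.068 (adjusted p = 0.00504), and its rise with shRNA#2 alone (0.33 ± 0.078) was not called without either shRNA#2 array or without scramble replicate 1.

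Of the 6 subunits of the MCM2 to MCM7 ring, 5 rose for the mean of both hairpins and with shRNA#4, 4 rose with shRNA#2, and MCM6 passed in none of these. MCM2 had 0.00 on both shRNA#2 arrays, 0.15 and 0.42 on the shRNA#4 arrays, and -0.70 and -0.50 on the scramble arrays, with a rise of 1.68-fold for the mean (0.74 ± 0.092, adjusted p = 0.00248). MCM3 had -0.02 and 0.02 with shRNA#2, 0.26 and 0.33 with shRNA#4, and -0.63 and -0.45 with scramble, a rise of 1.61-fold (0.69 ± 0.062, adjusted p = 0.000949). In both genes the scramble arrays were lowest and the shRNA#4 arrays highest, with no overlap of groups. MCM4 rose by 0.59 ± 0.085, about equally with shRNA#2 (0.58) and shRNA#4 (0.59), and MCM7 by 0.54 ± 0.072.

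MCM5 stood at 0.01 and -0.01 with shRNA#2, at 0.33 and 0.60 with shRNA#4, and at -0.35 and -0.15 with scramble. Its rise was 0.72 ± 0.11 with shRNA#4 (adjusted p = 0.0048), and with shRNA#2 its change was 0.25 ± 0.11 (adjusted p = 0.159). For the mean its rise was 0.49 ± 0.092 (adjusted p = 0.0116), a call that ended without scramble replicate 1 (0.39, adjusted p = 0.0767). MCM6 stood at -0.02 and 0.03 with shRNA#2, at 0.08 and 0.02 with shRNA#4, and at -0.18 and -0.03 with scramble. The 4 hairpin arrays of MCM6 still lay above both scramble arrays, its change was 0.13 ± 0.058 (adjusted p = 0.155), and the unadjusted 95% interval ran from -0.01 to 0.28. Per array and relative to scramble, MCM3 minus MCM6 was 0.43 and 0.43 with shRNA#2, 0.61 and 0.74 with shRNA#4, and -0.01 and 0.01 with scramble. MCM6 had the smallest change of the 6 subunits and was named after its values were seen, so the choice of this pair favours a gap. This difference was not tested, and different probe sets can respond unequally to the same change in RNA.

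Of the factors that turn the loaded ring into the active helicase, MCM10, CDC45, GINS1, GINS3 and GINS4 rose for the mean of both hairpins and GINS2 did not pass. MCM10, which acts at origin firing and is no part of the ring, had the largest change of the 14 licensing and firing genes. Its values were 0.03 and -0.03 with shRNA#2, 0.57 and 0.30 with shRNA#4, and -0.70 and -0.88 with scramble. It rose 1.73-fold with shRNA#2, 2.33-fold with shRNA#4 and 2.01-fold for their mean (1.005 ± 0.092, adjusted p = 0.000984). CDC45, which binds the ring together with GINS, rose by 0.49 ± 0.087 (adjusted p = 0.00906), a call that ended without scramble replicate 1 (0.38, adjusted p = 0.0546).

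The 4 GINS subunits form 1 complex. Differences between them were not tested. GINS1 stood at 0.00 and 0.04 with shRNA#2, at 0.00 on both shRNA#4 arrays, and at -0.71 and -0.50 with scramble. The hairpins did not separate in it, and it rose by 0.62 ± 0.075 with shRNA#2 and 0.61 ± 0.075 with shRNA#4. GINS3 rose by 0.55 and 0.60 with the same hairpins. GINS2 stood at -0.04 and -0.30 with shRNA#2, at 0.31 and 0.29 with shRNA#4, and at -0.31 and 0.04 with scramble. Its scramble and shRNA#2 arrays overlapped, and neither its change with shRNA#2 (-0.04 ± 0.13, adjusted p = 0.914) nor that with shRNA#4 (0.44 ± 0.13, adjusted p = 0.0608) passed. GINS4 had 2 probe sets that disagreed, with mean changes of 0.48 and 0.035, so its averaged rise of 0.26 ± 0.072 (adjusted p = 0.0458) is uncertain. That call ended in 5 of the 6 fits that left out 1 array, and without scramble replicate 1 the change of GINS4 was 0.14.

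The promoters of 25 of the 30 measured genes were at hand in RefSeq (GRCh38.p14), and the 250 bases before the start site are shown for 5 of them to set sequence beside the measurements: MCM3 and MCM7, ring subunits that rose, MCM6, the ring subunit that did not pass, PCNA, the clamp, and TYMS, which was lower with shRNA#2. Capitals mark matches to an E2F-type motif, searched as TTTCCCGC, TTTCGCGC, TTTGCCGC or TTTGGCGC on both strands, with overlapping matches counted.
MCM3 (chr6:52284743-52284992, minus strand): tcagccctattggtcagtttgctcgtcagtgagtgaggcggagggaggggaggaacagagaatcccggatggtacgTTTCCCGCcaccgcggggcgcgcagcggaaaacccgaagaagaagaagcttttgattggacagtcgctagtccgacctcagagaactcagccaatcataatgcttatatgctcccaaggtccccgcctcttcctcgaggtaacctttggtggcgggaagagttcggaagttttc
MCM7 (chr7:100101398-100101647, minus strand): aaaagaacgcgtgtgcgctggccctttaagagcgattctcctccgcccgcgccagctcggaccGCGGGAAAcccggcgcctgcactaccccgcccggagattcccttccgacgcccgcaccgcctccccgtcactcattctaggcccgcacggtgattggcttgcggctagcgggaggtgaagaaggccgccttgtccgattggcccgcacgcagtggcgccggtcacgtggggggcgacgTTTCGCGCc
MCM6 (chr2:135876444-135876693, minus strand): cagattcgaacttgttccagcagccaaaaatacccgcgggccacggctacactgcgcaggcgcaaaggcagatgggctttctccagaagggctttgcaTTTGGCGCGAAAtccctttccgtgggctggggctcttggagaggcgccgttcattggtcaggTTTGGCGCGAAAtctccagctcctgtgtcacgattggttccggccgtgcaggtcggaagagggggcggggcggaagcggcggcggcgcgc
PCNA (chr20:5126623-5126872, minus strand): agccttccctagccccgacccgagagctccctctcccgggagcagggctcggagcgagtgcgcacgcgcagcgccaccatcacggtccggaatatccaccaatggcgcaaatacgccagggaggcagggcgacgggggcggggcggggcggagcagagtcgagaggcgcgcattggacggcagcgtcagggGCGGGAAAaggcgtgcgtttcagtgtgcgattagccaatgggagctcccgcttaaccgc
TYMS (chr18:657403-657652, plus strand): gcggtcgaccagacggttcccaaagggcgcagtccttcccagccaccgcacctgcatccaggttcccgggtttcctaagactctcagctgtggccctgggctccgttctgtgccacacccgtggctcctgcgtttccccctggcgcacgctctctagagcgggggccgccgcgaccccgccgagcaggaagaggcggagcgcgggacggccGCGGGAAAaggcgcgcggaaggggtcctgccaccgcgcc

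The window of MCM3 holds 1 match, that of MCM7 holds 2, and that of MCM6 holds 4, in the form of 2 repeats of TTTGGCGCGAAA in which the matches of both strands overlap. PCNA and TYMS hold 1 match each, close to the start site. Over the 25 promoters, 8 hold such a match (32.0%), against 2.79% of 27305 promoters of the same length in the table and 3.81% of those of the genes tested. The CCAAT box, searched as CCAAT on both strands, is in 15 of the 25 (60.0%), in 33.0% of all promoters and in 34.3% of those of the genes tested. The cell cycle homology motif TTTGAA is in 1 of the 25 (4.0%), in 13.6% of all and in 10.4% of those of the genes tested. No E2F-type match in the 25 windows overlaps either of the other motifs. Of the 8 genes with an E2F-type match, CDT1, MCM3, MCM7, PCNA and UHRF1 rose for the mean of both hairpins. The others, GINS2, MCM6 and TYMS, did not pass. Of the genes without a match in the window, FEN1, MCM8, MCM9, RAD54L and RRM2 did not pass and the rest rose. Only the listed words within 250 bases before the start site were searched. A gene without a match may hold a variant of the motif or a site elsewhere. Whether matches and changes go together was not tested. The matches are descriptions of sequence, and binding was not measured.

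PCNA and FEN1 were the measured genes of the copying machinery. PCNA, the sliding clamp, stood at 0.31 and 0.06 with shRNA#2, at 0.10 and -0.06 with shRNA#4, and at -0.32 and -0.26 with scramble. All hairpin arrays were above scramble, and PCNA rose by 0.39 ± 0.085 for the mean (adjusted p = 0.0182), a call that ended without either scramble array (adjusted p = 0.108 without scramble replicate 1 and 0.0659 without scramble replicate 2). With shRNA#2 the rise was 0.47 ± 0.098, and with shRNA#4 the change was 0.31 ± 0.098 (adjusted p = 0.0641). FEN1, the nuclease that trims the flaps of lagging strand fragments, stood at 0.03 and -0.03 with shRNA#2, at 0.23 and 0.15 with shRNA#4, and at -0.24 and -0.03 with scramble. The scramble and shRNA#2 arrays touched, and FEN1 changed by 0.23 ± 0.069 for the mean (adjusted p = 0.0582). With shRNA#4 alone FEN1 rose by 0.32 (adjusted p = 0.0290), and with shRNA#2 its change was 0.13.

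Among the cyclins, nucleotide enzymes and chromatin factors, 4 of 7 rose for the mean of both hairpins and with shRNA#4. With shRNA#2 2 rose and 1, TYMS, fell. CDCA7L, a nuclear protein that binds MYC, stood at 0.71 and 0.66 with shRNA#2, at 0.12 and -0.12 with shRNA#4, and at -1.17 and -1.32 with scramble. The groups did not overlap, and CDCA7L rose 3.82-fold with shRNA#2 (1.93 ± 0.092) and 2.38-fold with shRNA#4 (1.25 ± 0.092). CCNE1, cyclin E1, which activates CDK2 at the G1/S boundary, stood at 0.53 and 0.56 with shRNA#2, at 0.02 and -0.02 with shRNA#4, and at -0.58 on both scramble arrays. It rose 2.18-fold with shRNA#2 (1.13 ± 0.046) and by 0.58 ± 0.046 with shRNA#4.

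CCNE2, cyclin E2, which serves the same kinase, did not pass the test. Its values were -0.04 and -0.24 with shRNA#2, 0.10 and 0.14 with shRNA#4, and -0.13 and 0.04 with scramble, and its change was 0.03 ± 0.077 (adjusted p = 0.847, unadjusted 95% interval -0.16 to 0.22). Relative to scramble, CCNE1 minus CCNE2 was 1.12 and 1.34 with shRNA#2, 0.45 and 0.38 with shRNA#4, and 0.09 and -0.09 with scramble. The difference between these paralogs was not tested, and CCNE2 was named after its values were seen.

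Ribonucleotide reductase makes deoxyribonucleotides from a large subunit, RRM1, and a small one, RRM2. RRM1 stood at 0.07 and -0.07 with shRNA#2, at 0.43 and 0.37 with shRNA#4, and at -0.39 and -0.16 with scramble. The groups did not overlap, and RRM1 rose by 0.67 ± 0.090 with shRNA#4 (adjusted p = 0.00339) while its change with shRNA#2 was 0.27 ± 0.090 (adjusted p = 0.0859). RRM2 ranged from -0.07 to 0.24 on the hairpin arrays and stood at -0.01 and 0.01 with scramble, so the groups overlapped, and its change for the mean was 0.06 ± 0.080 (adjusted p = 0.715). TYMS, thymidylate synthase, stood at -0.41 and -0.63 with shRNA#2, at 0.20 and 0.16 with shRNA#4, and at -0.01 and 0.01 with scramble. It lay on opposite sides of scramble with the hairpins: it fell by 0.52 ± 0.079 with shRNA#2 (1.44-fold lower, adjusted p = 0.00631), and its change with shRNA#4 was 0.18 ± 0.079 (adjusted p = 0.159). The mean of both hairpins (-0.17, adjusted p = 0.132) therefore describes neither.

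UHRF1, which recruits the maintenance DNA methyltransferase to newly copied DNA, stood at -0.06 and 0.06 with shRNA#2, at 0.19 and 0.26 with shRNA#4, and at -0.31 and -0.07 with scramble. It rose by 0.31 ± 0.080 for the mean of both hairpins (adjusted p = 0.0359), with a scramble replicate 2 close to the shRNA#2 arrays. The call of UHRF1 ended when any array other than scramble replicate 2 was left out, and without scramble replicate 1 its change was 0.19 (adjusted p = 0.176).

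Of the 7 measured genes of homologous repair and fork protection, RAD54B, RAD51C, EXO1 and RAD18 rose for the mean of both hairpins and with shRNA#4, and 3 of the 7 rose with shRNA#2. The median log2 change of the 7 was 0.54 for the mean. RAD54B, a DNA translocase of recombination, stood at 0.17 and 0.27 with shRNA#2, at 0.03 and -0.03 with shRNA#4, and at -0.87 and -0.57 with scramble. It rose 1.78-fold (0.83 ± 0.088, adjusted p = 0.00154), with 1.92-fold for shRNA#2 and 1.64-fold for shRNA#4. Its paralog RAD54L stood at -0.07 and 0.15 with shRNA#2, at 0.20 and 0.07 with shRNA#4, and at -0.13 and -0.10 with scramble, a change of 0.20 ± 0.075 (adjusted p = 0.109). The hairpin arrays of RAD54L were also above scramble. Relative to scramble, RAD54B minus RAD54L was 0.85 and 0.73 with shRNA#2, 0.44 and 0.50 with shRNA#4, and -0.13 and 0.13 with scramble, and this difference was not tested.

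RAD51C, which acts in homologous recombination, stood at -0.01 and 0.01 with shRNA#2, at 0.62 and 0.69 with shRNA#4, and at -0.35 and -0.26 with scramble. The groups were well apart. RAD51C rose 1.95-fold with shRNA#4 (0.96 ± 0.056, adjusted p = 0.000338) and 1.24-fold with shRNA#2 (0.31 ± 0.056, adjusted p = 0.0123). The second call of RAD51C ended without either shRNA#2 array and without scramble replicate 1, with changes of 0.26 to 0.32. When the 4 hairpin arrays were taken as 1 group, RAD51C was not called for the mean (adjusted p = 0.159), and the difference between hairpins is then part of the error. EXO1, a nuclease that resects broken ends, stood at 0.02 and -0.02 with shRNA#2, at 0.27 and 0.05 with shRNA#4, and at -0.55 and -0.50 with scramble, and rose by 0.61 ± 0.068 (adjusted p = 0.00179).

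RAD18, a ubiquitin ligase that modifies PCNA at stalled forks, stood at -0.05 and 0.05 with shRNA#2, at 0.11 and 0.23 with shRNA#4, and at -0.65 and -0.25 with scramble. The hairpin arrays were all higher, the scramble arrays lay far apart, and the rise was 0.54 ± 0.11 (adjusted p = 0.0170). That call of RAD18 ended without shRNA#2 replicate 2 (adjusted p = 0.0514) and without shRNA#4 replicate 2 (adjusted p = 0.0501). MCM8 and MCM9, which form a helicase of their own in recombination, did not pass, with changes of 0.12 ± 0.070 and 0.08 ± 0.056. Their unadjusted 95% intervals ended at 0.29 and 0.22.

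**Figure D2:**
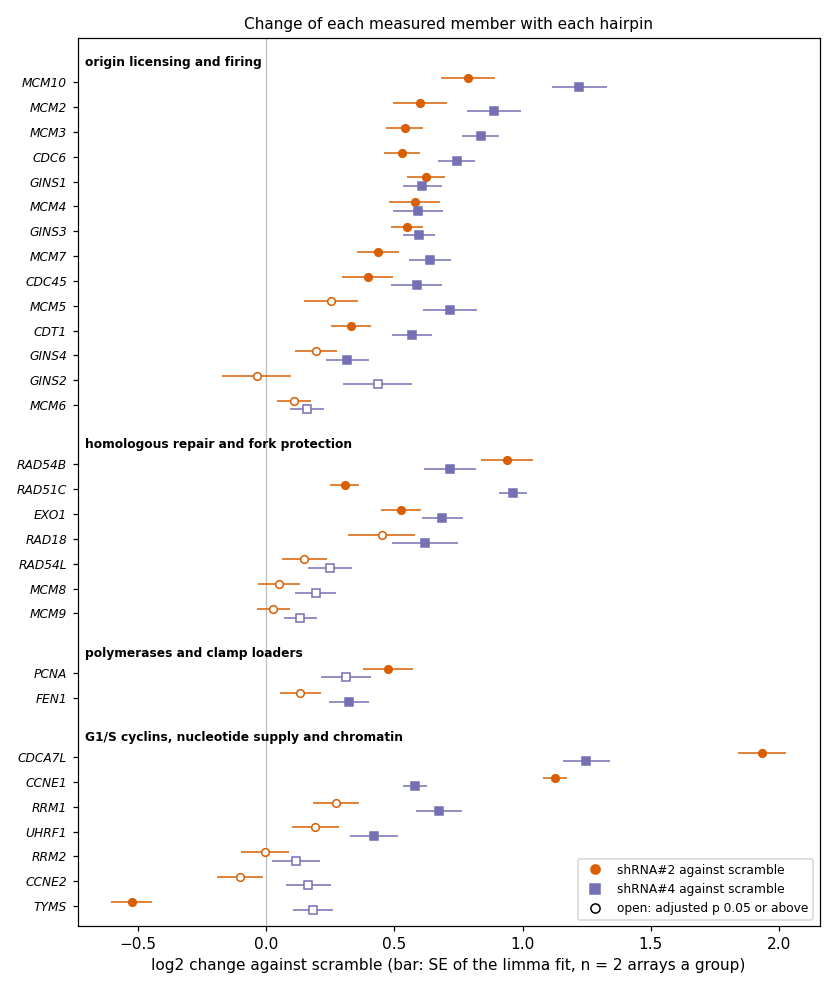
Log2 change of each measured gene with shRNA#2 (circles) and with shRNA#4 (squares) against scramble; bars are the SE of the fitted change, with 2 arrays in each group, and filled symbols passed an adjusted p under 0.05. Squares lie to the right of circles for most genes. CDCA7L, CCNE1, RAD54B, PCNA and, slightly, GINS1 show the reverse, and TYMS is the only filled symbol below 0.

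The hairpins were then compared with each other. Of the 30 genes, 2 were higher and 6 lower with shRNA#2 than with shRNA#4 in the limma fit, where 15.3% of all genes passed, 6.64% higher and 8.63% lower. The genes higher with shRNA#2 were CDCA7L (0.68 ± 0.092, adjusted p = 0.00722) and CCNE1 (0.54 ± 0.046, adjusted p = 0.00264). The genes lower with shRNA#2 were TYMS (-0.71 ± 0.079), RAD51C (-0.655 ± 0.056), MCM5 (-0.46 ± 0.11), MCM10 (-0.43 ± 0.11), RRM1 (-0.40 ± 0.090) and MCM3 (-0.30 ± 0.072). The adjusted p-values of TYMS and RAD51C were 0.00452 and 0.00264, and those of the other 4 lay between 0.0338 for RRM1 and 0.0438 for MCM10. CCNE1, TYMS and RAD51C were called in all 6 fits that left out 1 array, and the other 5 lost their call at least once.

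Both shRNA#2 arrays were above both shRNA#4 arrays for 3 of the 30 genes (CCNE1, RAD54B and CDCA7L), and below both for 21. The shares over all genes were 24.6% and 29.9%. In 15 of the 30 genes the arrays fell without overlap into the order scramble, shRNA#2, shRNA#4 from low to high, as they did for 7.61% of all genes. All 15 except RAD51C, EXO1, RAD18, RRM1 and UHRF1 belong to licensing and firing. Group means alone ran in this order in 21 of the 30 genes and in 20.6% of all genes.

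**Figure D3:**
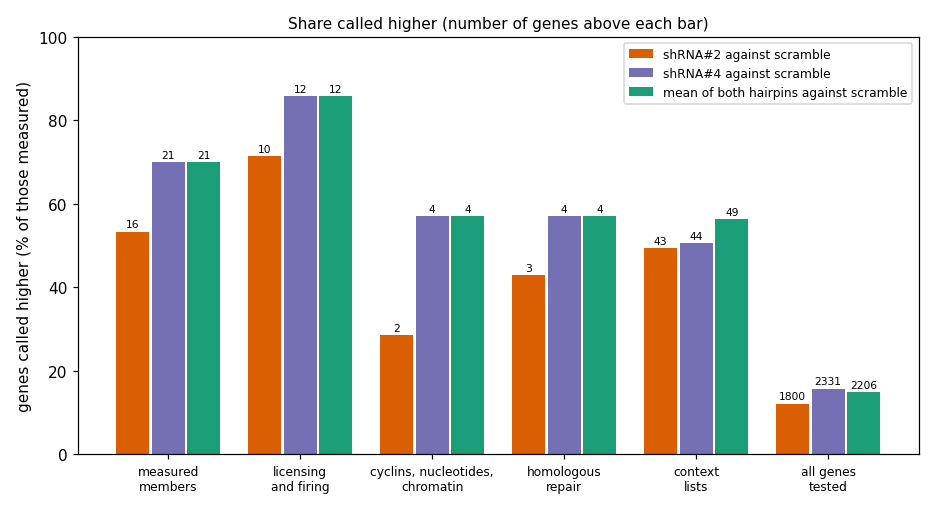
Share of measured genes called higher (limma, adjusted p under 0.05) in percent, with the number of genes above each bar, for shRNA#2, shRNA#4 and the mean of both hairpins, each against scramble. The licensing and firing genes reach 85.7% with shRNA#4 and for the mean, and all genes tested 15.7% and 14.8%. The first set of bars is all 30 measured genes, PCNA and FEN1 included. The context lists are the 87 genes of the same and related processes described next.

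Genes of the same and related processes outside the 58 were examined in 6 lists with 145 names, of which 87 were measured. These lists were also chosen with earlier results of these data known, so their counts are a description and not independent evidence. For the mean of both hairpins 49 of the 87 rose and 4 fell, and the median log2 change was 0.25. Without scramble replicate 1, fewer of the 87 rose and more fell, and fewer of all genes were called. With shRNA#2 alone 43 rose and 8 fell, and with shRNA#4 alone 44 rose and 4 fell. Of all genes, 14.8% were higher and 10.6% lower for the mean. With shRNA#2 the shares of all genes were 12.1% and 9.54%, and with shRNA#4 15.7% and 10.4%. Falls in the 87 were thus no more frequent than among all genes. The same shares of all genes apply to each list below. The counts by list below are for the mean of both hairpins unless a hairpin is named, and a gene that went opposite ways with the hairpins can fail to pass there. Among 15 other replication and fork factors 11 rose and 0 fell. WDHD1, which couples the helicase to polymerase alpha, rose by 1.11 ± 0.089, CDC7, the kinase that phosphorylates the MCM ring, by 1.09 ± 0.10, TIPIN, a fork protection factor, by 0.80 ± 0.069, and TICRR, which helps to load CDC45, by 0.75 ± 0.076. For WDHD1 and CDC7 the hairpins were close to each other, with values between -0.04 and 0.13 on all 4 arrays, against -1.18 and -0.92 for WDHD1 and -1.24 and -0.86 for CDC7 on the scramble arrays.

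Among 16 further genes of homologous recombination and the Fanconi pathway 10 rose and 0 fell for the mean, while 8 rose and 1 fell with shRNA#2 and 6 rose and 1 fell with shRNA#4. The falls, named after their values were seen, were those of TOP3A, a topoisomerase, with shRNA#2 (-0.30, adjusted p = 0.0335) and of PALB2, the partner of BRCA2, with shRNA#4 (-0.20, adjusted p = 0.0300). XRCC2, a recombination factor, rose by 0.66 ± 0.061, CHEK1, the checkpoint kinase of stalled forks, by 0.55 ± 0.064, RAD51AP1, which also acts in recombination, by 0.54 ± 0.13, and BARD1, the partner of BRCA1, by 0.45 ± 0.096. The call of RAD51AP1 ended without any 1 hairpin array, and that of BARD1 without scramble replicate 1 (0.31) or shRNA#4 replicate 1. Repair routes other than recombination gave 6 rises and 1 fall among 12 genes. MSH6, a mismatch sensor, rose by 0.77 ± 0.062, PARP1, which binds strand breaks, by 0.64 ± 0.058 and XRCC4, of end joining, by 0.43 ± 0.0705. The fall was that of OGG1, the glycosylase that removes oxidised guanine (-0.49 ± 0.049), which stood at -0.03 on both shRNA#2 arrays, at -0.04 and 0.03 with shRNA#4, and at 0.42 and 0.53 with scramble.

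Of 17 genes of the E2F, pocket protein and DREAM group, which control transcription of cell cycle genes, 8 rose and 2 fell for the mean. With shRNA#2 5 rose and 3 fell, and with shRNA#4 7 rose and 1 fell. RBL1, a pocket protein that restrains E2F, rose by 0.58 ± 0.14, the activating factor E2F3 by 0.43 ± 0.079, the E2F partner TFDP1 by 0.42 ± 0.0545 and E2F1 by 0.33 ± 0.0875. The calls of E2F1 and RBL1 ended without either scramble array and without shRNA#2 replicate 1 (E2F1 also without shRNA#2 replicate 2), and that of E2F3 without scramble replicate 2 (0.33, adjusted p = 0.0547). The 2 that fell, TFDP2 (-0.32 ± 0.067) and LIN37 (-0.25 ± 0.057), were named after their values were seen, and each lost its call in some fits without 1 array. RB1, the pocket protein that restrains E2F in G1, fell with shRNA#2 (-0.42, adjusted p = 0.0193), while its change with shRNA#4 was 0.23 (adjusted p = 0.107), and the hairpins differed (adjusted p = 0.00688). It too was picked after its values were seen. Of 14 cyclins, kinases and inhibitors 7 rose and 1 fell for the mean, 8 rose and 2 fell with shRNA#2, and 9 rose and 1 fell with shRNA#4. CCND3, cyclin D3, picked likewise, fell with shRNA#2 (-0.29, adjusted p = 0.00939) and rose with shRNA#4 (0.19, adjusted p = 0.0331). These calls of RB1, CCND3, TOP3A and PALB2 with a single hairpin each ended in at least 1 fit without 1 array. CCND1, cyclin D1, rose by 0.998 ± 0.089, CCND2 by 0.65 ± 0.0805, CKS1B, a cofactor of cyclin-dependent kinases, by 0.60 ± 0.056 and the phosphatase CDC25A by 0.57 ± 0.076. CCNG2, a cyclin known from cells that leave the cycle, fell by 0.51 ± 0.058, a fall named after its value was seen. Of 13 other S-phase genes 7 rose and 0 fell. They included CDCA7, the paralog of CDCA7L (0.92 ± 0.064), GMPS, of guanine nucleotide synthesis (0.62 ± 0.055), DNMT1, the methyltransferase that UHRF1 recruits (0.60 ± 0.059), and DCK, which salvages deoxynucleosides (0.51 ± 0.052). MKI67, a marker of cycling cells, and TOP2A, which untangles copied chromosomes, were picked after their values were seen and did not pass, with changes of 0.14 (adjusted p = 0.311) and 0.07 (adjusted p = 0.571).

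**Figure D4:**
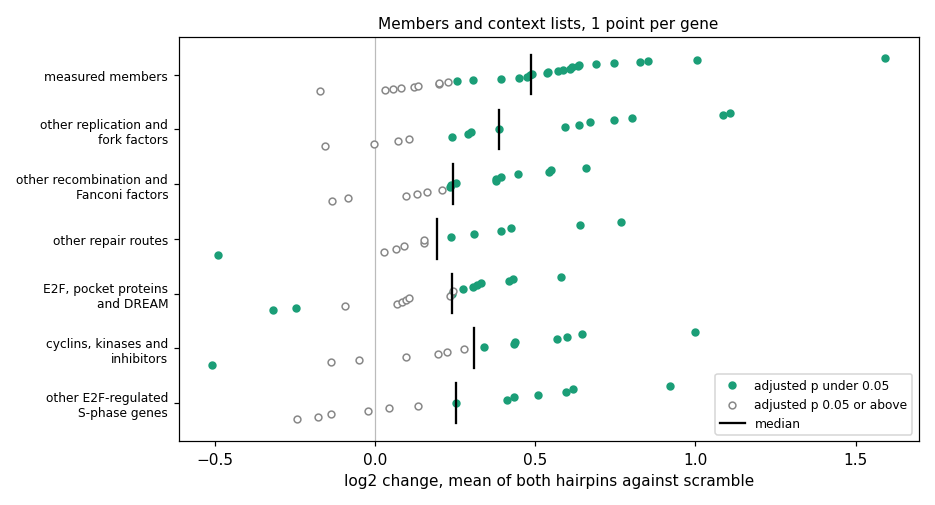
Log2 change against scramble, averaged over both hairpins, 1 point per gene, for the 30 measured genes and the 6 further lists; filled points passed an adjusted p under 0.05 and the bar is the list's median. The medians are 0.49 for the 30 genes, 0.39 for other replication and fork factors and between 0.19 and 0.31 for the rest.

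Some markers of the colon epithelium moved in the same comparison. Of 7 measured, 4 fell and 0 rose for the mean, where 10.6% of all genes were lower and 14.8% higher. KRT8 (0.13, adjusted p = 0.434) and KRT19 (-0.007, adjusted p = 0.975) did not pass in the limma fit. KRT20 stood at 0.03 and -0.06 with shRNA#2, at -0.03 and -0.08 with shRNA#4, and at 1.56 and 0.75 with scramble. KRT20 was lower on all hairpin arrays (-1.19 ± 0.206, adjusted p = 0.00848), and the scramble arrays lay far apart. VIL1, a brush border protein, fell by 0.61 ± 0.059. CDX2 (-0.26) and EPCAM (-0.15) fell by less, and each lost its call without some single arrays. The changes of the 7 ran from -1.19 for KRT20 to 0.30 for KRT18, which did not pass for the mean and rose with shRNA#4 alone (0.49, adjusted p = 0.0315, not called without shRNA#4 replicate 2 or without either scramble array). Taken by hairpin, CDX2 fell with shRNA#4 and did not pass with shRNA#2, and EPCAM fell with shRNA#2 and did not pass with shRNA#4. Of 7 markers of other cells 2 were measured, and VIM rose by 0.28 ± 0.048 (not called without scramble replicate 1, with 0.26 and an adjusted p of 0.0572) while PECAM1 changed by -0.04 (adjusted p = 0.656). In bulk RNA a larger share of cells in S phase and more RNA of these genes per cell cannot be told apart, and the part of culture density or differentiation in the differences was not tested.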

How the data were processed

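Each of the 6 Caco-2 samples was measured on a single-channel Affymetrix array, from 100 ng of total RNA with the WT PLUS kit, per the labels' protocols. The deposited values, taken here as log2, were made by the authors. Their summarisation, normalization, software and logarithm base are not stated in any source used here. Each probe set had a median within 1e-06 of 0 over the 6 arrays, read from the values, so signal over background could not be used, and the number of arrays limits the precision.

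Of 48144 probe sets, 16098 had 1 gene symbol in the platform table, 0 several and 32046 none. Probe sets of a gene were averaged, giving 14884 genes, and 0 symbols were updated through the RefSeq table. Groups and replicate numbers follow the titles. All genes were fitted together in limma 3.58.1 (R 4.3.3) with 3 groups and moderated variances with no trend (degrees of freedom: 3 residual, 3.09 prior), and p-values were adjusted by Benjamini-Hochberg over all genes. Since nothing says the replicates were separate cultures, the p-values cover only the spread among these arrays, which may be technical. The script was tested on simulated data. No replicate block was used, since the labels do not say what a replicate number shares.

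The genes, roles and lists were chosen with earlier results of these data known. Arrays are given in full for up to 5 genes a role by size of the mean change and for genes called between the hairpins; of a further list, up to 4 genes are named. Remaining subunits and paralogs were named after their values were seen.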

Additional observations from a re-analysis of the deposited data

Results flagged for a closer look

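For 8 genes the effects of the hairpins, each against scramble, differed from each other by a direct test in limma (shRNA#2 minus shRNA#4). The difference was 0.68 for CDCA7L and 0.54 for CCNE1. It was -0.71 for TYMS, -0.66 for RAD51C, -0.46 for MCM5, -0.43 for MCM10, -0.40 for RRM1 and -0.30 for MCM3. Both arrays of each hairpin lay on 1 side of both arrays of the other in each of the 8. This adds no separate support, since the 8 were called from these same arrays. Over all genes, both shRNA#2 arrays were above both shRNA#4 arrays for 24.6% and below both for 29.9%. With 2 arrays per group, no test of outlying arrays was made.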

How the results depend on the processing

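The counts of genes higher and lower among the 30 stayed within 1.5 times of those reported under 9 other choices: quantile normalization, median centring, weights per array, a prior robust to outlying variances, a variance trend, the most variable probe set of a gene, probe sets not averaged, protein-coding genes only, and the arrays compared alone. The last was not run for the mean of both hairpins, which compares all 6 arrays. Single calls that ended there were those of CDC45 with shRNA#2 (adjusted p = 0.0824 after quantile normalization and 0.0676 with the arrays compared alone), of GINS4 and FEN1 with shRNA#4 (0.0608 and 0.052 with the arrays compared alone), and of MCM10 between hairpins (0.069 after quantile normalization). RBL1 and E2F1 lost theirs after quantile normalization, and FEN1 gained one for the mean with protein-coding genes only (0.044). RAD18 with shRNA#2, and GINS2, PCNA and RAD54L with shRNA#4, gained a call under at least 1 of these choices. Between hairpins, 7 genes instead of 6 were lower with shRNA#2 with protein-coding genes only and with the arrays compared alone. Which gene was gained there was not recorded.

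At an adjusted p under 0.01, 10 rose with shRNA#2 and 2 were lower with shRNA#2 than with shRNA#4, and in the further lists 31 rose and 2 fell. All genes called were then 1575 with shRNA#2, 2122 with shRNA#4, 2158 for the mean and 769 between hairpins. With a change of at least 1.5-fold, 6 rose and 0 fell with shRNA#2, 11 rose for the mean, 1 was higher and 2 lower between hairpins, and in the further lists 16 rose and 0 fell. All genes called were then 828, 1183, 823 and 466 in the same order. With the 4 hairpin arrays as 1 group, 1756 of all genes and 14 of the 30 were called for the mean, and 28 rose and 2 fell in the further lists. MCM5, CDT1, GINS4, PCNA, RRM1, RAD51C and UHRF1 lost their call in that fit.

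Leaving out 1 array gave 9 to 18 rises and 1 fall with shRNA#2, 17 to 23 rises and 0 falls with shRNA#4, 16 to 21 rises and 0 to 1 falls for the mean, 1 to 2 genes higher and 2 to 7 lower between hairpins, and 34 to 47 rises and 2 to 6 falls in the further lists. All genes called ranged over 1756 to 2982, 2677 to 3476, 2477 to 3358 and 761 to 2166 in the order of the first 4. The fall for the mean was that of TYMS (-0.23, adjusted p = 0.0344 without shRNA#2 replicate 1). For the mean, among the 30 genes and the genes named outside them with their value for it, directions turned in 4 that were not called: CCNE2 (-0.0033 under quantile normalization, -0.055 to 0.12 without 1 array), RRM2 (-0.0063 to 0.12), TOP2A (-0.039 to 0.18) and PECAM1 (-0.096 to 0.0087). For single hairpins, without 1 array, they turned in MCM8 (-0.0496 to 0.15), MCM9 (-0.033 to 0.089), GINS2 (-0.21 to 0.14), RRM2 (-0.069 to 0.061) and KRT18 (-0.0066 to 0.22) with shRNA#2 and in RRM2 with shRNA#4 (-0.0088 to 0.24), none of them called with that hairpin in the fit of all arrays.

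Deviations from group means correlated at 0.119 to 0.199 between same-numbered arrays of different groups, which share only a number in the labels. With that number as a block (replicate block), 17 rose and 1 fell with shRNA#2, 22 rose with shRNA#4, 21 for the mean, and 2 were higher and 6 lower between hairpins. The calls gained were those of RAD18 with shRNA#2 (adjusted p = 0.0166, against 0.0568 without the block) and PCNA with shRNA#4 (0.042, against 0.0641), and no call was lost. All genes called were 3598, 4227, 4160 and 2637, and KRT18 was called for the mean (adjusted p = 0.00811). A filter on dim probe sets and another offset of the logarithm were not run, since the values hold no level. The causes of the changes were not tested.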
